A study of Saccharomyces cerevisiae with 6 samples.

Results

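A set of 10 histone genes of budding yeast (Saccharomyces cerevisiae) was followed on 6 two-colour spotted arrays. They are the core histone genes HTA1 and HTA2 (H2A), HTB1 and HTB2 (H2B), HHT1 and HHT2 (H3) and HHF1 and HHF2 (H4), the variant gene HTZ1 and the linker histone gene HHO1. Members were chosen by gene symbol in the platform annotation, and each gene had 1 feature, so 10 of 7680 features and 10 of 5583 named genes are described. All 10 features had a value on all 6 arrays. Each array set total RNA of the yra1-1 temperature-sensitive mutant against total RNA of a strain labelled Yra1 wildtype, both from cells at 37 °C. This temperature is the non-permissive one for the mutant according to the labels. Yra1 is an RNA-binding adaptor for mRNA export. The labels give no further allele, strain background, time at 37 °C or culture number, so p-values cover only the variation from array to array, part or all of which may be technical.

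Core histones H2A, H2B, H3 and H4 form the protein spool around which nucleosomal DNA is wrapped. In budding yeast each is encoded by a pair of gene copies, and the copies lie as neighbours, an H2A gene beside an H2B gene and an H3 gene beside an H4 gene. Their mRNAs are made mainly around S phase, when new DNA has to be packed, and the HIR repressor complex holds most of these genes back at other times. Htz1 is the H2A.Z variant that the SWR1 remodeller places near promoters, and Hho1 is the H1-like linker histone, which is not needed for growth.

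In the R64 gene table HTA1 (YDR225W) and HTB1 (YDR224C) are adjacent on chromosome IV, and HTA2 (YBL003C) and HTB2 (YBL002W) on chromosome II. HHT1 (YBR010W) and HHF1 (YBR009C) are adjacent on chromosome II, and HHT2 (YNL031C) and HHF2 (YNL030W) on chromosome XIV. HTZ1 (YOL012C) is on chromosome XV and HHO1 (YPL127C) on chromosome XVI. The copies of a pair have equal gene lengths in this table, 399 bp for H2A, 396 bp for H2B, 411 bp for H3 and 312 bp for H4. Copies of a pair are close in coding sequence, so a spotted feature of 1 copy may also have bound cDNA of the other, and values of a single copy are uncertain.

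By the labels, arrays 1, 4 and 6 carry mutant RNA in channel 1, whereas arrays 2, 3 and 5 carry it in channel 2. Which channel is the numerator of the deposited log10 ratios is not stated in the labels or the table. Log10 ratios were rescaled to log2, and the array median, −3.91 to 4.11 on that scale, was subtracted. They are given in 2 readings. In the columns as deposited, no sign is changed. In the turned reading, signs on arrays 2, 3 and 5 are reversed, so that the labelled mutant channel is on the same side throughout. The turned reading means mutant over wild type if the numerator is channel 1, the inverse if it is channel 2, or a difference between dyes where turning was already done before deposit. Columns of opposite channel assignment had a median correlation of −0.03 across features and columns of the same assignment 0.26. Results are therefore given as positive or negative sides of the array median, and neither side can be called higher or lower in the mutant.

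Array 1 stood apart from the other 5 for the mutated gene and for the strain marker genes TRP1 and URA3. YRA1 read −1.39 on array 1 (centred log2 ratio, no sign changed), with 3.07, 1.64, 1.21, 3.49 and 1.00 following for arrays 2 to 6. TRP1 read −3.48 there and 2.76 to 4.16 elsewhere, and URA3 read 3.19 there and −5.92 to −2.21 elsewhere. These splits do not follow the labelled channel. As deposited, each of these genes had 1 sign on arrays 2 to 6, which hold both channel assignments. After turning, TRP1 read −3.84, −3.45 and −3.22 on arrays 2, 3 and 5, against 4.16 and 2.76 on arrays 4 and 6. The turned reading thus put arrays 2, 3 and 5 on the other side from arrays 4 and 6 for these genes. In the title of array 1 alone the letters mex precede the name of the mutant, and the labels do not say what they mean. A single feature was also a coarse measurement. For the 1100 genes with exactly 2 features, the median absolute difference between both features was 0.51 to 0.85 log2 units by array, and both had the same sign for 56.6% to 67.5% of genes. Features near each other by identifier, which follows the position on the slide, had correlated values (0.42 to 0.52 by array for neighbouring identifiers). No intensities were used here, so signal over background is unknown and the number of arrays limits the precision.

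None of the 10 histone features passed in either reading (limma adjusted p under 0.05 over all 7680 features). In the turned reading the 8 core histone features all had a negative shift, of −0.15 to −1.10 log2 units, whereas the linker gene HHO1 lay at 1.32 and the variant gene HTZ1 at 0.11. The median shift of the core features was −0.37, against 0.04 over all features, of which 46.5% were negative and 53.5% positive. Of the 10, the H2B gene HTB1 had the most negative shift and HHO1 the most positive one. In bulk RNA such as this, a different share of cells in S phase and a different amount of histone mRNA per cell cannot be told apart. If columns were turned before deposit, the turned shift is a difference between dyes instead. The marker genes TRP1 and URA3 kept 1 sign on arrays 2 to 6 only in the columns as deposited. Only 1 feature of the whole table passed in this reading (0.013%), and 13% had an unadjusted limma p under 0.05, against 3 of the 10 histone features: HTB1, HHF1 and HHO1. That count fell to 1 without array 4, without array 5, without array 6 or with array 1 turned over, where the count over all features went from 998 to 637, 1094, 943 and 292.

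**Figure D1:**
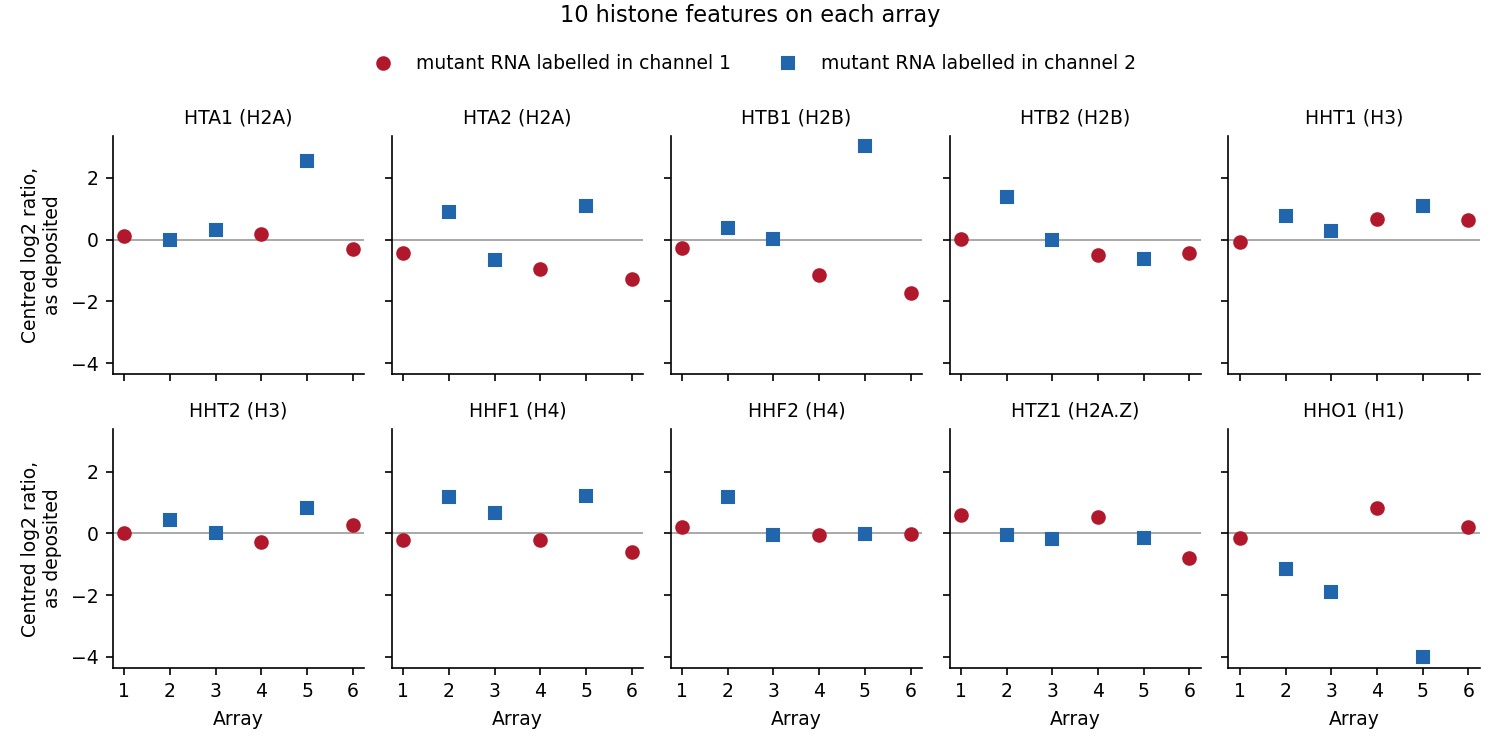
Centred log2 ratio, as deposited, of each of the 10 histone features (panels) on arrays 1 to 6 (horizontal axis). Red circles mark mutant RNA in channel 1 and blue squares mutant RNA in channel 2; the grey line is the array median. HTB1 and HTA1 reach 3.02 and 2.56 on array 5, where HHO1 reaches −4.00.

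Of the H2A genes, HTA1 lay at 0.12, 0.18 and −0.30 on arrays 1, 4 and 6 and at −0.02, 0.33 and 2.56 on arrays 2, 3 and 5, which turn to 0.02, −0.33 and −2.56. Array 5 was far above the rest, at the 96.7th percentile of that array, and on the other 5 arrays HTA1 stayed between −0.30 and 0.33. Its turned shift was −0.48 ± 0.38 (SE, 6 arrays, limma adjusted p = 0.684) with 3 of 6 arrays positive, and −0.08 without array 5.

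HTA2 lay at −0.44, −0.96 and −1.27 on arrays 1, 4 and 6 and at 0.89, −0.66 and 1.11 on arrays 2, 3 and 5, which turn to −0.89, 0.66 and −1.11. Array 3 was thus the exception to a negative turned value. In the turned reading its shift was −0.67 ± 0.34 (limma adjusted p = 0.450), with a 95% confidence interval of −1.42 to 0.08. On arrays 1 and 3 the HTA2 value was identical to 9 decimals to that of 7 other features within 22 identifiers, among them ACS1, GDH3 and PEP1, and so was not a measurement of this gene alone. Without those repeated values the turned shift was −1.06.

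Of the H2B genes, HTB1 lay at −0.27, −1.13 and −1.74 on arrays 1, 4 and 6 and at 0.37, 0.03 and 3.02 on arrays 2, 3 and 5, which turn to −0.37, −0.03 and −3.02. The arrays of both channel assignments did not overlap, and all 6 turned values were negative. The turned shift was −1.10 ± 0.42 (95% confidence interval −2.02 to −0.17), a 2.14-fold difference, and it did not pass (limma adjusted p = 0.319). The spread between arrays was wide: HTB1 stood at the 98.0th percentile on array 5 and at the 4.23rd on array 6, but at the 51.8th on array 3. Without array 5 the shift was −0.63.

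HTB2, the copy beside HTA2, lay at 0.04, −0.50 and −0.42 on arrays 1, 4 and 6 and at 1.39, −0.02 and −0.62 on arrays 2, 3 and 5, which turn to −1.39, 0.02 and 0.62. Only array 2 was far from the rest, and the channel assignments overlapped. Over 6 arrays the turned shift was −0.27 ± 0.35 (limma adjusted p = 0.836), and 0.01 without array 2. The value on array 2 was identical to 9 decimals to that of 6 other features within 21 identifiers, among them HIR1, a subunit of the histone repressor, CHS2 and FUS3.

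The H3 genes were positive as deposited on most arrays. HHT1 lay at −0.08, 0.66 and 0.65 on arrays 1, 4 and 6 and at 0.78, 0.27 and 1.09 on arrays 2, 3 and 5, which turn to −0.78, −0.27 and −1.09. Array 1 was the exception to a positive deposited value. As deposited the shift was 0.56 ± 0.31 (95% confidence interval −0.12 to 1.24, limma adjusted p = 0.509), and turned it was −0.15 ± 0.31 (adjusted p = 0.918).

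HHT2 lay at 0.02, −0.26 and 0.26 on arrays 1, 4 and 6 and at 0.43, 0.02 and 0.81 on arrays 2, 3 and 5, which turn to −0.43, −0.02 and −0.81. It spanned the narrowest range of the 10 features, and array 4 was its only negative deposited value. Turned, its shift was −0.21 ± 0.31 (limma adjusted p = 0.869) and the deposited shift was 0.21 (adjusted p = 0.866).

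Of the H4 genes, HHF1 lay at −0.21, −0.22 and −0.60 on arrays 1, 4 and 6 and at 1.19, 0.65 and 1.22 on arrays 2, 3 and 5, which turn to −1.19, −0.65 and −1.22. The channel assignments did not overlap and all 6 turned values were negative. The turned shift was −0.68 ± 0.30 (95% confidence interval −1.34 to −0.02, limma adjusted p = 0.370), a 1.60-fold difference. It ran from −0.77 to −0.62 when each array was left out in turn. This range was narrower than those of HTB1, whose turned shift was larger in size, and of HTA2 and HTA1, whose turned shifts were smaller.

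HHF2 lay at 0.20, −0.06 and −0.03 on arrays 1, 4 and 6 and at 1.18, −0.05 and −0.01 on arrays 2, 3 and 5, which turn to −1.18, 0.05 and 0.01. It was near the array median on 5 arrays and positive on array 2, where its ratio equals that of the whole numbers 889 and 349. Its turned shift of −0.17 ± 0.32 (limma adjusted p = 0.908) became 0.03 without array 2.

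HTB1 and HHF1 were the only histone features with 1 sign on all 6 arrays in the turned reading, 2 of 10, against 7.28% of all 7592 features with complete values. As deposited it was 0 of 10, against 8.09%. The arrays of both channel assignments did not overlap for 3 of the 10 (HTB1, HHF1 and HHO1), against 18.1% of all features.

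HTZ1 stayed within 0.81 log2 units of the array median. It lay at 0.60, 0.52 and −0.81 on arrays 1, 4 and 6 and at −0.04, −0.17 and −0.14 on arrays 2, 3 and 5, which turn to 0.04, 0.17 and 0.14. Array 6 alone was negative after turning. Its shift after turning was 0.11 ± 0.32 (95% confidence interval −0.60 to 0.82, limma adjusted p = 0.946) and the deposited shift was −0.01 (adjusted p = 0.997). The ratios on arrays 1, 2 and 5 equal those of whole numbers, 473 to 1160 on array 1, 542 to 499 on array 2 and 750 to 1123 on array 5. Of the 60 histone values 6 equal such ratios, among them 279 to 1025 for HHT2 on array 1, against 9.77% of all values.

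HHO1 was the only histone feature with a turned shift above 1 log2 unit on the positive side. It lay at −0.14, 0.82 and 0.21 on arrays 1, 4 and 6 and at −1.15, −1.90 and −4.00 on arrays 2, 3 and 5, which turn to 1.15, 1.90 and 4.00. The channel assignments did not overlap, and array 1 was the exception to a positive turned value. Over 6 arrays the turned shift was 1.32 ± 0.40 (95% confidence interval 0.46 to 2.19), a 2.51-fold difference, and it did not pass (limma adjusted p = 0.254). The deposited shift was −1.03 ± 0.40 (adjusted p = 0.253). The value on array 5 is the ratio of 40 to 871, and without array 5 the turned shift was 0.91.

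On arrays 3 and 5 the features next to HHO1 on the slide had values near its own. The median of its 8 neighbours (1, 2, 20 and 21 identifiers away on either side, all of them named genes other than histones) was −3.70 on array 5 and −1.51 on array 3, beside −4.00 and −1.90 for HHO1. On array 5 only 6 of the neighbours had a value, and these spread from −5.32 to −0.53. The neighbour median was 1.91 on array 4 and −0.04 on array 2, beside 0.82 and −1.15 for HHO1, so the feature stood farther below its neighbours there. The turned shift of the 8 neighbours had a median of 0.96. With the neighbour median subtracted, the turned shift of HHO1 was 0.04 ± 0.25 (limma adjusted p = 0.979), and the root mean square of its 6 values went from 1.90 to 0.69 log2 units.

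**Figure D2:**
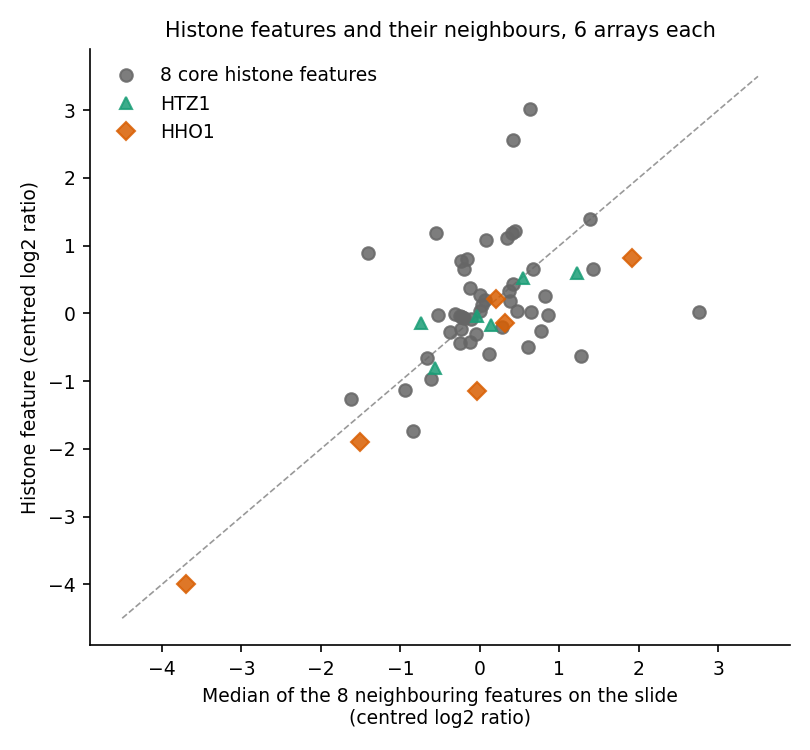
Centred log2 ratio of each histone feature (vertical axis) against the median of its 8 neighbours on the slide (horizontal axis), 1 point per feature and array, with the dashed line at equal values. The HHO1 point at −4.00 lies beside neighbours at −3.70 (6 with a value), while the core features at 2.56 (HTA1) and 3.02 (HTB1) lie beside neighbours at 0.42 and 0.64.

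The core features did not all behave in this way. HTA1 and HTB1 on array 5 exceeded their neighbours by 2.14 and 2.39 log2 units. All 8 neighbours of HTB1 nevertheless had a negative turned shift, from −1.45 to −0.11 with a median of −0.53, and HTB1 itself was at −0.58 ± 0.36 (limma adjusted p = 0.622) with them subtracted. With the neighbour median subtracted, 7 of the 8 core features kept a negative turned shift, the exception being HTB2 (0.23). The median of the 8 was −0.53, and 46.6% of all features were negative in that fit. HHF1 was at −0.76 ± 0.24 (limma adjusted p = 0.525), HHT2 at −0.79 ± 0.34 and HHT1 at −0.51 ± 0.24 (adjusted p = 0.549 each), and none passed. The subtraction lowered the root mean square of 3 of the 8 core features (HTA1, HTB1 and HHF2), against 69.5% of all features with complete values. For HHT2 it rose from 0.40 to 1.30, since neighbours on array 1 had a median of 2.75 where HHT2 lay at 0.02.

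**Figure D3:**
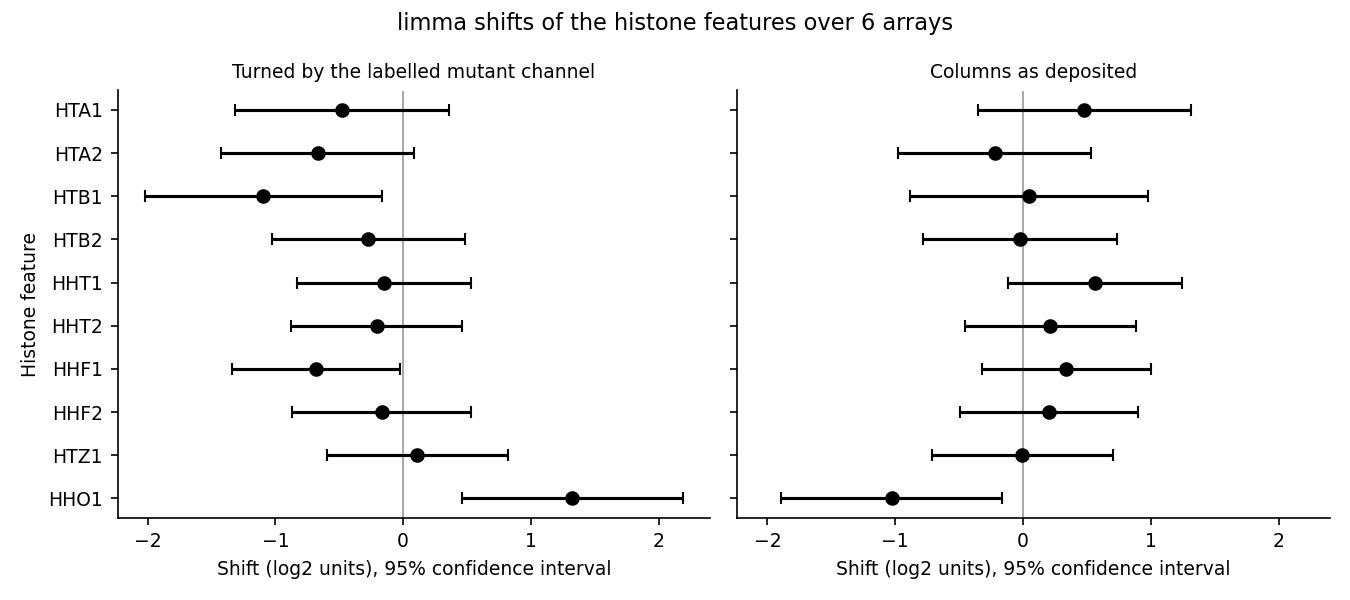
Shift of each histone feature (rows) in log2 units, in the turned reading (left) and in the columns as deposited (right); points are limma coefficients over 6 arrays and bars 95% confidence intervals. All 8 core features lie left of 0 on the left panel, where HTB1, HHF1 and HHO1 have intervals that leave out 0, and HHO1 alone does so on the right panel.

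By array, the mean of the 8 core histone features took its side of the median according to the labelled channel, to unequal extents. Arrays 1, 4 and 6 gave means of the 8 features of −0.08, −0.29 and −0.43, and arrays 2, 3 and 5 gave 0.78, 0.07 and 1.15. Array 5 thus had the largest mean and arrays 1 and 3 means near 0. Positive features numbered 4, 2 and 2 of 8 on arrays 1, 4 and 6. On arrays 2, 3 and 5 they numbered 7, 5 and 6. The H3 mean was instead positive on arrays 4 and 6 (0.20 and 0.46), and the H2A mean negative on array 3 (−0.17). Features of cytosolic ribosomal protein genes (158, selected by symbol) had means of the same signs as those of the 8 core features. Their means were −0.40, −0.34 and −0.70 on arrays 1, 4 and 6 and 0.21, 0.30 and 1.91 on arrays 2, 3 and 5. The part of this shift, which is shared by an abundant class of mRNAs, in the histone values was not tested.

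Sample titles hold a code of digits, which was read here as a day and numbered 1 to 4 in order of the code. Arrays that share a code have the mutant in opposite channels, which gives a value within such a day. Within day 1 (arrays 5 and 6) 7 of 8 core features had a negative turned value, with a median of −0.59, where 47.7% of all features were negative. It was −2.38 for HTB1, −1.43 for HTA1, −1.19 for HTA2 and −0.91 for HHF1, and HTB2 at 0.10 was the exception. Within day 4 (arrays 1 and 3) only 5 of 8 were negative, with a median of −0.05 and a range of −0.43 (HHF1) to 0.13 (HHF2), where 46.2% of all features were negative. The larger core shifts were thus those of day 1, and on day 4 HTB1 was at −0.15 and HTA1 at −0.10. HHO1 was at 2.11 within day 1 and 0.88 within day 4. HTZ1 was at −0.33 and 0.38. Days 2 and 3 hold 1 array each and give no such value. Both arrays of day 4 carry slide number 5 in the labels, as 5a and 5b.

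**Figure D4:**
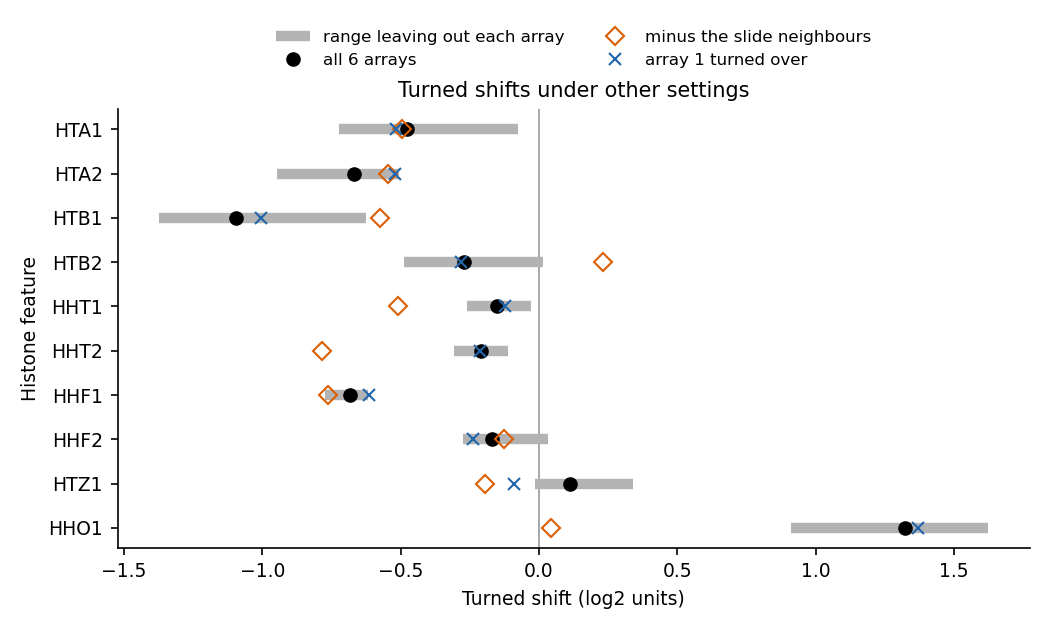
Turned shift of each histone feature (rows) in log2 units: black points use all 6 arrays, grey bars span the values with each array left out in turn, open diamonds have the slide neighbours subtracted and crosses have array 1 turned over. HHO1 goes from 1.32 to 0.04 with neighbours subtracted, and HTB2 and HTZ1 change sides.

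Array 1 was turned over in a further fit, in view of the strain marker genes above. All 8 core features were still negative in the turned reading (median −0.40), against 50.1% of all features, and HHO1 was at 1.37. Without array 1 all 8 core features were also negative (median −0.43), against 46.9% of all features, and HHO1 was at 1.43. The turned shift of HTZ1 changed to −0.09 and −0.01 in these fits. With array 1 turned over, TRP1 and URA3 have 1 sign on all 6 arrays in the columns as deposited, but not in the turned reading. In that deposited fit 6 of 8 core features were positive (median 0.17), against 49.0% of all features. HHO1 was at −0.98 there (limma adjusted p = 0.545).

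Gene copies and adjacent genes were compared within arrays. The H3 copies were the closest paralogs, with an absolute difference of 0.10 to 0.93 log2 units by array (median 0.31). It had a median of 0.49 for the H4 copies, 0.82 for the H2B copies and 0.98 for the H2A copies. The H2B copies were also the farthest apart on any array, with HTB1 3.65 log2 units above HTB2 on array 5. Among adjacent genes the median was 0.25 for HHT2 and HHF2, 0.40 for HHT1 and HHF1, 0.43 for HTA1 and HTB1 and 0.56 for HTA2 and HTB2. Between 2 features of 1 gene the medians by array were 0.51 to 0.85, and the 90% quantiles were 1.57 to 2.22. Only the H2A copies had a median above 0.85, but their differences, 0.56 to 1.46 by array, stayed below those quantiles. The H2B difference of 3.65 on array 5 exceeded them. HTA2 on arrays 1 and 3 and HTB2 on array 2 entered with values repeated in nearby features. HTA1 and HTB1 were alike on array 5, at 2.56 and 3.02, and unlike on arrays 4 and 6, where HTA1 was above HTB1 by 1.31 and 1.44.

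In the columns as deposited, 6 of 8 core features were positive, with a median of 0.21 against 0.02 over all features, of which 51.5% were positive and 48.5% negative. HTA2 (−0.22) and HTB2 (−0.02) were the exceptions. The shifts of the core features ran from −0.22 to 0.56 and their limma adjusted p from 0.509 to 0.990. In this reading 1.65% of all features passed, and 13.5% had an unadjusted limma p under 0.05, against 1 histone feature, HHO1. Standard errors of the histone features were 0.30 to 0.42 log2 units, against a median of 0.36 over all features. For HHT1, the feature with the largest positive deposited shift of the 10, the interval leaves out shifts below −0.12 and above 1.24.

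Genes that control, carry or exchange histones were read from a list of 54 genes, all of them with a feature, 66 features in all. None passed in either reading. In the turned reading 27 were positive and 39 negative, with a median of −0.09 against 0.04 over all features, of which 46.5% were negative, and 5 had an unadjusted limma p under 0.05, against 13% of all features. As deposited, 29 were positive and 37 negative, with a median of −0.05, and 5 had an unadjusted limma p under 0.05. Over all features 48.5% were negative in that reading and 13.5% had such a p.

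Among repressors of histone transcription, HIR1 was the closest to passing. It lay at 1.13, 1.39, 1.29, 0.92, 1.27 and 1.94 on arrays 1 to 6, positive as deposited on all 6. The deposited shift was 1.32 ± 0.31 (limma adjusted p = 0.0572), and 1.03 ± 0.28 (adjusted p = 0.178) with the neighbour median subtracted. It lies next to HTB2 by identifier and shares its value on array 2. Its values on arrays 1, 2, 3 and 5 are all repeated elsewhere on the array, so that 4 of its 6 values may not be measurements of this gene alone. Without them it had too few values to be fitted. HIR2, another subunit of the complex, had the largest turned shift of the 4 HIR genes, at 0.83 ± 0.31 with 6 of 6 arrays positive (adjusted p = 0.302). The median of its slide neighbours had the sign of HIR2 on each array (1.09, −0.305, −0.28, 0.11, −0.43 and 0.40 on arrays 1 to 6).

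Transcription factors and chaperones gave scattered values. The G1/S transcription factor gene SWI4 had a turned shift of −0.72 ± 0.37 (limma adjusted p = 0.458). Its partner SWI6 had a deposited shift of 0.98 ± 0.34 on 1 feature (adjusted p = 0.190), with 4 of 6 values repeated elsewhere on the array, and −0.0059 on the other. The histone chaperone gene ASF1 had a turned shift of −0.76 ± 0.35 with 5 of 6 arrays negative (adjusted p = 0.387). HIF1, a partner of a histone acetyltransferase, was at −0.90 ± 0.32 as deposited on 1 feature (adjusted p = 0.208) and 0.13 on the other. NHP6A, which encodes an HMG-box protein that works with the FACT complex, had a turned shift of 0.85 ± 0.33 (adjusted p = 0.314). The median of its slide neighbours had the sign of NHP6A on each array. The elongation factor and histone chaperone gene SPT6 had a deposited shift of 0.49 ± 0.35 (adjusted p = 0.654).

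Of the 15 features for SWR1 and its partners in Htz1 exchange, 11 had a negative turned shift (median −0.26), against 46.5% of all features. SWC7 had the largest absolute value, on the other side, at 0.96 ± 0.43 with 6 of 6 arrays positive (limma adjusted p = 0.376). On array 1 it stood at 3.60, where its slide neighbours had a median of 2.36. The catalytic subunit gene SWR1 had a deposited shift of 0.72 ± 0.37 (adjusted p = 0.464), with 2 of 6 values repeated elsewhere on the array. TOM1, a ubiquitin ligase gene for excess histones, was at 1.08 ± 0.70 turned and 0.53 as deposited, with the widest error of the listed regulators named. Its values on arrays 3 to 6 are repeated elsewhere on the array, which leaves 4.78 on array 1 and −3.46 on array 2. The centromeric H3 variant gene CSE4 was at 0.15 ± 0.46 as deposited and its chaperone gene SCM3 at −0.24 ± 0.34 turned.

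Of 10 features for other genes of the G1/S and S-phase programme, 7 had a negative turned shift, with a median of −0.13, against the same 46.5% of all features. RNR1, the large subunit of ribonucleotide reductase, was the most negative. It lay at −1.11, −2.07 and −0.47 on arrays 1, 4 and 6 and at 0.70, 1.03 and 2.11 on arrays 2, 3 and 5, so that all 6 turned values were negative. Its turned shift was −1.25 ± 0.35 (limma adjusted p = 0.247), and −0.62 ± 0.25 (adjusted p = 0.541) with the neighbour median subtracted. The S-phase cyclin gene CLB6 was at −0.68 ± 0.41 as deposited on 1 feature (adjusted p = 0.554) and −0.10 on the other.

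The named features whose 6 centred values lay closest to the mean profile of the core histone genes were found by root mean square difference, among 6643 features with complete values. They were PAN3, a subunit of a poly(A) nuclease (0.15 log2 units), YLR177W (0.19), URA6, a uridylate kinase gene (0.20), IPP1, which encodes inorganic pyrophosphatase (0.21), and YCL049C (0.23). The median over all named features was 1.10. Among the histone features themselves, HHF1 (0.31) and HHT2 (0.35) lay closest to that mean and HTB1 (1.01) farthest among the core genes. The 5 features above have the smallest differences picked from 6643, so their lower values cannot be compared with those of the core features. HTZ1 (0.78) and HHO1 (2.44) are not part of the mean, and HHO1 was the farthest of the 10.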

How the data were processed

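Total RNA of yra1-1 and wild-type cells was compared on 6 two-colour arrays, which were counted as 6 replicates of 1 group. The authors deposited log10 ratios. How images, background and normalization were treated is stated in neither the labels nor the table. The log10 scale was read from the values: 38 to 338 values per array were log10 ratios of whole numbers with 1 term up to 60 (relative tolerance 1e-08), against at most 2 in base 2 and 1 in base e. Rows of 3 repeated identifiers were averaged and 1 row whose identifier is not a number was dropped. Of 7680 features, 6695 had 1 symbol, 0 several and 985 none, and 6690 matched the R64 gene table.

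Log2 values centred on array medians entered a limma fit (version 3.58.1 in R 4.3.3, moderated by eBayes), which required 4 arrays with a value, including 2 of each channel assignment. The fit has a term for the labelled mutant channel (turned) and an intercept (as deposited). Tests were two-sided, with Benjamini-Hochberg adjustment over all features, a threshold of 0.05 and a check on simulated data. Repeated values are equal to 9 decimals to that of another feature on the array, at any distance. Whole-number ratios have terms with a product below 1000000 (tolerance 1e-09 on the log10 scale). Named genes are the 10 members, YRA1, TRP1, URA3, per role of the regulator list the gene with the largest absolute shift in each reading, and the 5 closest profiles. SWI6, HIF1 and CLB6 have a second feature, given beside the first. Other genes are named where they share a value with a member. The members and lists were chosen with earlier results of these data known.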

Additional observations from a re-analysis of the deposited data

Results flagged for a closer look

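Of the 10 histone features in both readings, 5 results had 1 array far from the other 5 by Dixon's gap ratio at its 95% critical value. Chance gives this in about 1 of 20 groups of normally distributed values, and both readings hold the same 6 arrays. The share over all features was not computed, so whether histone features differ from others in this was not tested. HTA1 stood at 2.56 on array 5 as deposited, where the next value was 0.33 (gap ratio 0.782), and so at −2.56 when turned (0.816). Its slide neighbours there had a median of 0.42. HTB2 stood at 1.39 on array 2 as deposited, where the next value was 0.04 (0.672). This is the value that 6 nearby features share to 9 decimals. HHF2 stood at 1.18 on array 2 as deposited, where the next value was 0.20 (0.786), and so at −1.18 when turned (0.808).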

How the results depend on the processing

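No histone feature passed in limma under any alternative run, in either reading (lowest adjusted p = 0.0805, for HHO1 with array weights). Of 179 alternative values of turned shifts 169 had the same side and 10 changed it, and of 179 deposited shifts 161 and 18. Separate mutant and wild-type samples could not be paired, because each array already holds both strains and the 6 arrays form 1 group. Arrays of a shared day were set against each other above, without a test. The day also entered a fit as a random block. Core features with a negative turned shift numbered 6 without array 2. They numbered 7 with the neighbourhood correction, without whole-number ratios, without repeated values or with array weights, and 8 in the other fits. Over all features, 44.0% to 50.1% had a negative turned shift across the fits. With the neighbourhood correction the turned shift became 0.23 for HTB2 and −0.20 for HTZ1, and the deposited shift 0.48 for HTA2 and −0.66 for HHT2. That correction without array 5, chosen after seeing the data, gave a turned −0.071 for HTZ1 and −0.18 for HTB1, and a deposited 0.55 for HTA2, −0.15 for HTB1 and −0.87 for HHT2. Array weights gave a turned 0.012 for HHT1 and a deposited −0.38 for HTB1. The deposited shift of HTB1 was −0.11 with scaling or quantile normalization, and that of HTB2 0.014 with quantile normalization. The turned shift was 0.014 for HTB2 without repeated values, 0.033 for HHF2 without whole-number ratios and −0.089 for HTZ1 with array 1 turned over. The cause of these changes was not tested. HTZ1 had too few values without whole-number ratios to be fitted.

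With each array left out in turn, turned shifts ran from −0.49 to 0.014 for HTB2 and −0.28 to 0.033 for HHF2 (above 0 without array 2), and −0.013 to 0.34 for HTZ1 (below 0 without array 1). Deposited shifts ran from −0.39 to 0.054 for HTA2 (above 0 without array 3), −0.42 to 0.32 for HTB1 (below 0 without array 1 or 5), −0.31 to 0.19 for HTB2 (above 0 without array 3, 4, 5 or 6) and −0.13 to 0.22 for HTZ1 (above 0 without array 3 or 6). Regulators passing as deposited numbered 1, HIR1, with scaling, quantile normalization or the day as random block, and 3 with array weights (HIR1, SWI6 and SPT10, a histone gene activator), against 0 in the main limma fit. Of their 6 values 4, 4 and 3 are repeated elsewhere on the array, and without repeated values these 3 features could not be fitted. Histone features at an unadjusted limma p under 0.05 in the turned reading numbered 3, and 1 without array 4, 5 or 6 or with array 1 turned over. Over all features, 1 passed turned and 127 as deposited. Turned, it was 2 with scaling or quantile normalization, 7 with array weights, 0 with the neighbourhood correction (with or without array 5), without repeated values or with values on all 6 arrays, where 683, 868, 923 and 990 had an unadjusted limma p under 0.05, and 0 to 4 leaving out each array (0 without array 4, 5 or 6, 4 without array 3). As deposited, it was 3 with the neighbourhood correction, 12 with it and without array 5, 36 without repeated values, 257 with the day as random block, 580 with array weights, 2 with array 1 turned over, 69 with features of a gene averaged, and 0 to 214 leaving out each array (0 without array 4 or 6, 15 without array 3, 45 without array 1, 69 without array 2, 214 without array 5). At an unadjusted limma p under 0.05 the deposited reading had 817 features without array 4 and 783 without array 6, and the turned reading 637, 1094 and 943 without arrays 4, 5 and 6.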
